A study of Mus musculus with 6 samples.

Results

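Chemokine ligands are small secreted proteins that direct the movement of leukocytes. RNA of 10 mouse ligand genes, Ccl1, Ccl3, Ccl4, Ccl5, Ccl6, Ccl9, Xcl1, Cxcl9, Cxcl10 and Cxcl16, was examined out of 23942 genes in the deposited table. The genes were taken by symbol, and all 10 were found once each. RNA came from memory group 1 innate lymphoid cells (ILC1s) of mouse liver (3 libraries, treatment labelled OXA, day 30) and from naive ILC1s of mouse liver (3 libraries, solvent, day 0), with the cell type labelled lymphocyte. The labels do not spell out OXA, and they give no strain, age or cell sort and no word on whether animals were pooled. The groups differ in treatment and in day at once, so effects of treatment and of elapsed time cannot be told apart. The labels do not say whether replicates are different animals, and each p-value therefore reflects library-to-library spread that could be technical.

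Chemokines are named for the spacing of the cysteines near their start (C, CC, CXC), and each binds one or a few G-protein-coupled receptors. Lymphocytes of the natural killer and ILC1 lineages are known for XCL1, which attracts cross-presenting dendritic cells through XCR1, and for CCL3, CCL4 and CCL5, which attract monocytes and lymphocytes. CCL6 and CCL9 are rodent ligands of CCR1 made mainly by myeloid cells. CXCL9 and CXCL10 are induced by interferons and bring in CXCR3-bearing lymphocytes, while CXCL16 is a membrane-bound ligand of CXCR6, the receptor that retains lymphocytes in liver sinusoids.

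The libraries held 18697093 to 23795266 assigned reads. Values are RPKM, reads per kilobase of exon scaled to the library's total of assigned reads, so levels can be set beside each other between genes. Every member was above the floor of 3 reads in every library, the lowest being Cxcl9 with 11 reads in naive replicate 2. Genes listed for ILC1s were abundant in each group. Ncr1 (the receptor NKp46, which natural killer cells also carry) was at 498 to 520 RPKM in memory libraries and 481 to 499 in naive libraries. Of 17 tested macrophage and monocyte genes, 12 were higher in memory libraries and none lower, where 3.20% of all tested genes were higher. The 18 genes of that list summed to 580 to 608 RPKM in memory libraries and 119 to 125 in naive libraries. Without Ccr2, whose groups overlapped (67.9 ± 1.08 RPKM in memory and 66.2 ± 1.56 in naive libraries, SD, n = 3 each), the sums were 513 to 540 RPKM in memory libraries and 53.7 to 60.1 in naive libraries. Lyz2, a gene of that list, alone averaged 448 RPKM in memory and 37.8 in naive libraries. Some of the 12 calls, that of Clec4f among them, were lost in most fits that left out 1 library. None of the 18 was at 0 in every library of a group. Of 6 tested dendritic cell and MHC class II genes, 5 were higher in memory. The 8 in the list summed to 322 to 324 RPKM in memory libraries and 45.4 to 50.2 in naive libraries. Most of that sum was H2-Ab1, Cd74 and H2-Eb1, at means of 134, 122 and 62.5 RPKM in memory and 20.2, 19.6 and 7.80 in naive libraries. Flt3 and Clec9a were at 0 in every naive library and had 42 to 79 and 9 to 23 reads in memory libraries. Zbtb46, Cd209a and Siglech of the same list had reads in every naive library, 42 to 87 for Zbtb46. Neutrophil genes summed to 1.56 to 2.12 RPKM in memory libraries and 0.39 to 0.85 in naive libraries; Csf3r, the only one tested, was higher in memory, and 4 of the 7, S100a8 among them, were at 0 in every memory library. Of 10 tested ILC1 genes 1 rose and none fell. Hepatocyte genes summed to 8.83 to 10.1 RPKM in memory libraries and 3.26 to 5.20 in naive libraries, and of 5 tested 1, Alb (albumin), was higher in memory (limma adjusted p = 0.0336). Of 5 tested natural killer cell genes S1pr5 was higher in memory (limma adjusted p = 0.0139), and of 6 tested T cell genes Cd3g was lower (limma adjusted p = 0.0181). The Alb call was lost without any 1 library except naive replicate 3 (adjusted p up to 0.11), and so was that of Cd3g (up to 0.0778). The S1pr5 call was lost without any memory library or naive replicate 2 (up to 0.0658).

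Levels of the ligands spanned a wide range, with means of 330 RPKM for Xcl1 and 0.74 for Ccl1 in memory libraries and of 274 for Xcl1 and 0.29 for Cxcl9 in naive libraries. Xcl1 and Ccl5 together made 82.9% to 86.3% of the summed RPKM of the 10 ligands in memory libraries, against 89.6% to 91.0% in naive libraries. Xcl1 was the most abundant in each group and Ccl5 came next, with no overlap between their ranges or with Ccl3. In memory libraries Ccl3, Ccl6 and Ccl4 followed, with ranges that overlapped from each to the next, then Ccl9. Cxcl10 and Cxcl16 overlapped below it, and so did Cxcl9 and Ccl1 at the bottom. In naive libraries Ccl3 and Ccl4 overlapped, Ccl6 stood alone below them, and the other 5 ligands lay under 1 RPKM with each range overlapping the next.

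**Figure D1:**
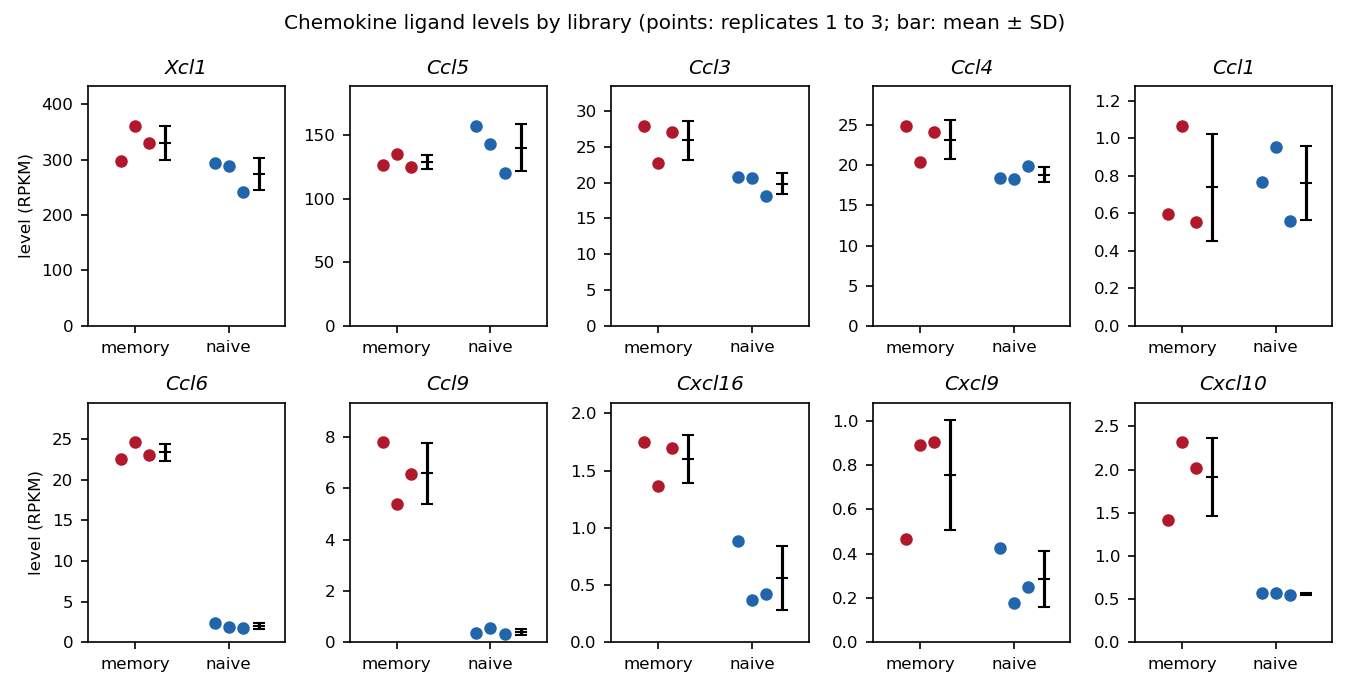
Level of each ligand in RPKM (vertical axes, from 0, scaled per gene) in the 3 memory and 3 naive libraries; points are libraries and the bar is the mean with SD. Ccl6 lies between 22.5 and 24.6 RPKM in memory libraries and between 1.71 and 2.38 in naive libraries, while Ccl5 and Ccl1 overlap between the groups.

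Across the 10 ligands, Ccl6, Ccl9 and Cxcl10 rose in memory libraries, none fell, and 7 did not pass the test. The test was limma-trend on log2(RPKM + 1), adjusted over all 13793 genes tested, with a threshold of 0.05. Of all tested genes, 3.20% were higher in memory by that rule, 0.972% were lower and 4.17% changed in either direction. The groups did not overlap for 8 of the 10 ligands, all with memory above naive. Over all tested genes 14.9% stood apart in that direction and 24.1% in either. The median change of the ligands was 0.40, beside 0.02 for all tested genes, on the log2(RPKM + 1) scale.

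**Figure D2:**
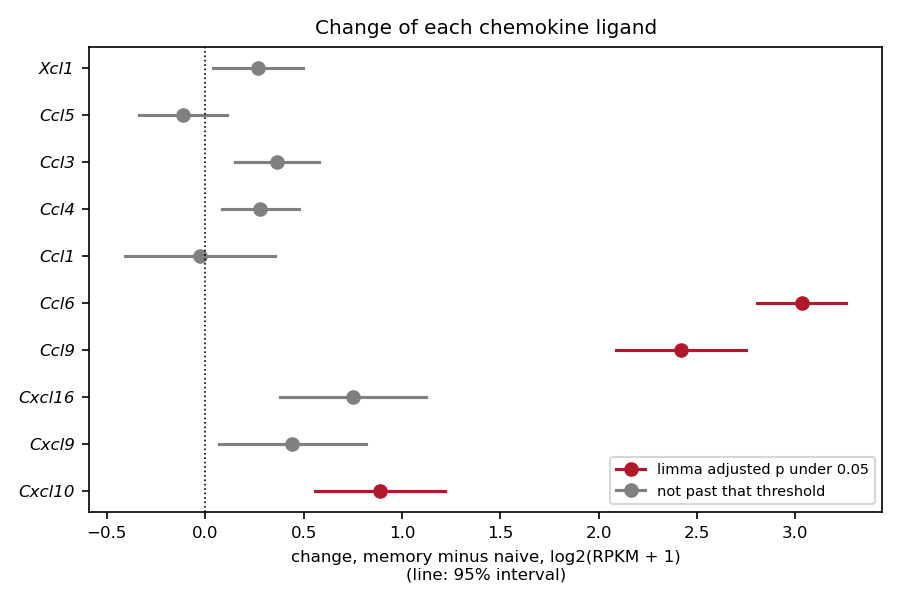
Change of each ligand between memory and naive libraries on the log2(RPKM + 1) scale (horizontal axis) with its 95% interval from limma; red marks an adjusted p under 0.05. Ccl6 (3.03), Ccl9 (2.42) and Cxcl10 (0.89) are past the threshold. The intervals are per gene and not adjusted, and only those of Ccl5 and Ccl1 include 0. Of all tested genes, 17.5% had an unadjusted limma p under 0.05, in either direction.

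Ccl6 and Ccl9 had the largest changes among the ligands, Ccl6 ahead on the log2(RPKM + 1) scale and Ccl9 ahead by the ratio of means, with a pseudocount of 0.1 and by voom on recovered reads. Ccl6 lies on chromosome 11 (83587882 to 83593087, mm10, minus strand). Ccl6 had 22.5, 24.6 and 23.0 RPKM in memory libraries, against 2.38, 1.86 and 1.71 RPKM in naive libraries. The lowest memory library was far above the highest naive one, and in memory libraries Ccl6 was as abundant as Ccl3 and Ccl4. The ratio of means was 11.8, and the log2 change was 3.03 (SE 0.09, limma adjusted p = 1.72e-05). Ccl9 (chromosome 11, 83572919 to 83578636, minus strand) had 7.79, 5.40 and 6.57 RPKM in memory libraries, against 0.35, 0.55 and 0.33 RPKM in naive libraries. The naive values rest on 20 to 34 reads. Again the groups did not overlap, and the ratio of means was 16.1, with a log2 change of 2.42 (SE 0.14, limma adjusted p = 0.000226). Leaving out any 1 library did not end either call, with adjusted p up to 0.000357 for Ccl6 and 0.00328 for Ccl9.

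Most macrophage and monocyte genes tested were higher in memory libraries, as were Ccl6 and Ccl9, but to differing degrees. The ratio of means was 7.78 for Csf1r, 4.62 for Adgre1, 1.40 for Vsig4 and 1.03 for Ccr2. Neither Vsig4 nor Ccr2 was called. Lyz2 and Mpeg1, used below, had the largest ratios of means in that list. Lyz2, the lysozyme of myeloid cells, had 442, 464 and 437 RPKM in memory libraries, against 36.5, 34.1 and 42.8 RPKM in naive libraries, a ratio of means of 11.8. Per RPKM of Lyz2 in the same library, Ccl6 was at 0.0509, 0.0530 and 0.0526 in memory libraries, against 0.0654, 0.0547 and 0.0400 in naive libraries, so the groups overlapped and differed little on that scale. Per RPKM of Lyz2, Ccl9 was at 0.0176, 0.0116 and 0.0150 in memory libraries, against 0.00964, 0.0161 and 0.00763 in naive libraries, also overlapping. Against Mpeg1 (perforin-2 of phagocytes, 18.2 ± 0.67 RPKM in memory and 1.69 ± 0.22 in naive libraries, SD, n = 3 each), Ccl9 was at 0.437, 0.302 and 0.345 in memory libraries and 0.241, 0.292 and 0.188 in naive libraries, without overlap. Against Mpeg1, Ccl6 was at 1.26, 1.37 and 1.21 in memory libraries and 1.64, 0.989 and 0.987 in naive libraries, and the groups overlapped. These ratios were chosen after the values were seen and carry no test. The part of the myeloid genes in the rise of Ccl6 and Ccl9 was not tested, and in bulk RNA more cells of a type and more RNA per cell cannot be told apart.

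**Figure D3:**
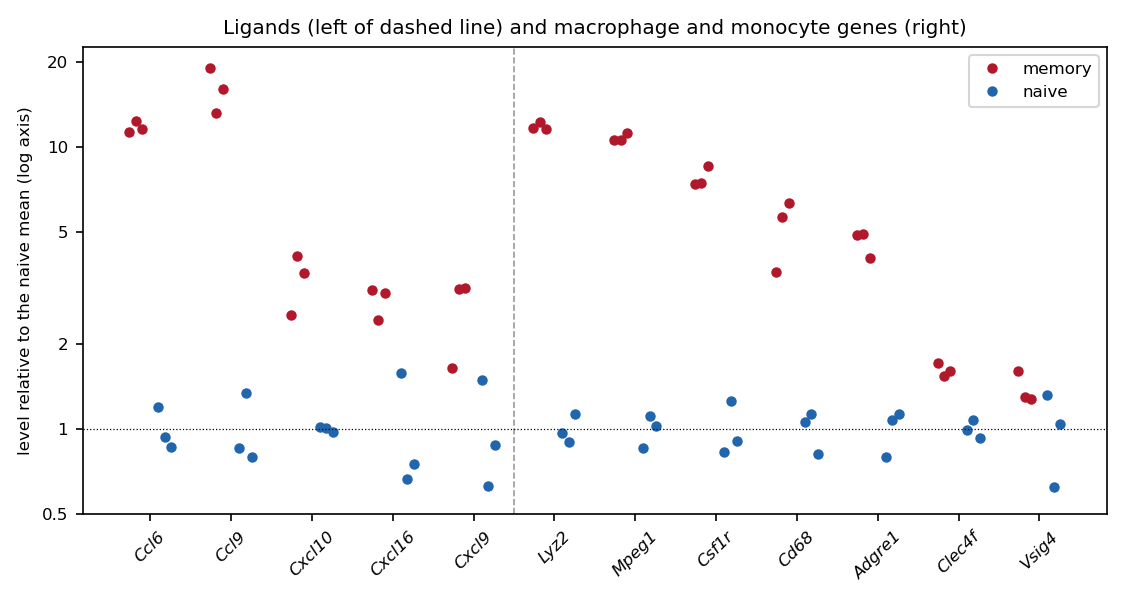
Level of 5 ligands and 7 macrophage and monocyte genes in each memory and naive library, divided by the mean of the naive libraries (vertical log axis). Ccl6 and Lyz2 lie at similar multiples in memory libraries (ratios of means 11.8 for each), Ccl9 is higher (16.1), and Cxcl10 (3.41), Cxcl16 (2.86) and Cxcl9 (2.64) are lower, above the Kupffer cell gene Clec4f (1.62).

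Ccl6 and Ccl9 are neighbours, 9.25 kb apart in a stretch of chromosome 11 that holds 5 of the 10 ligands within 139 kb. Ccl5 lies 42.4 kb to one side of Ccl9, and Ccl3 lies 54.8 kb to the other side of Ccl6 and 13.2 kb from Ccl4. Ccl5, Ccl3 and Ccl4 did not pass the test. Tested genes on the 2 sides of the ligands were Heatr9, at 17.9 RPKM in memory and 17.3 in naive libraries, and Wfdc17, at 2.44 ± 0.93 RPKM in memory and 0.61 ± 0.65 in naive libraries (SD, n = 3 each, limma adjusted p = 0.14). Neither was past the threshold. No stretch of 50 bases was shared by the annotated transcripts of any of the 45 pairs of ligands. Only 1 pair, Ccl6 and Ccl9, shared a stretch of 25.

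**Figure D4:**
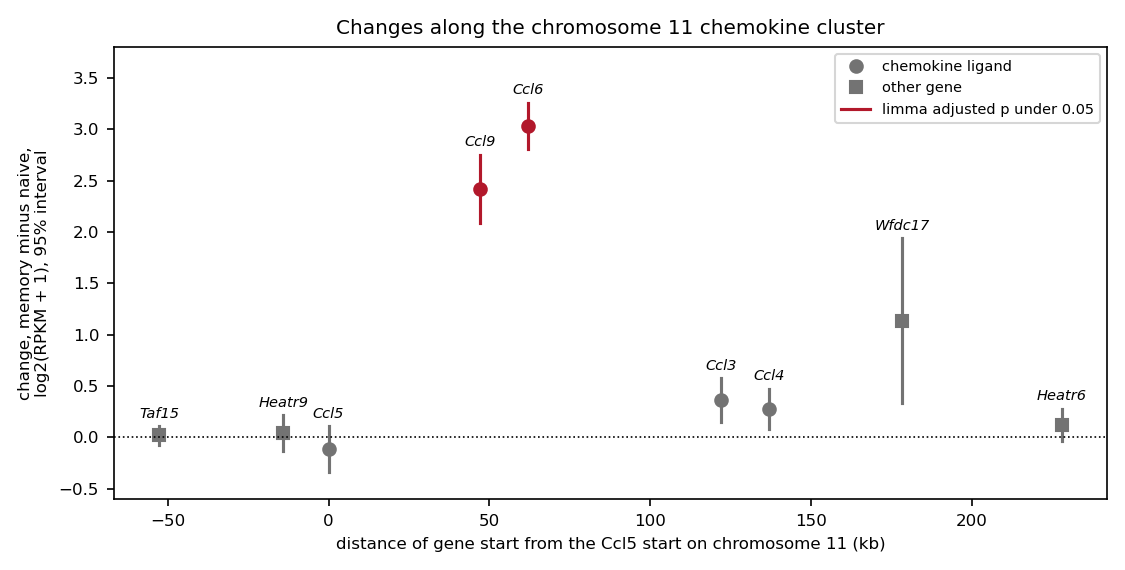
Change between memory and naive libraries on the log2(RPKM + 1) scale with its 95% interval from limma (vertical axis) for the tested genes along the chromosome 11 ligand cluster, by distance of the gene start from that of Ccl5 in kb (horizontal axis); circles are ligands, squares other genes and red marks an adjusted p under 0.05. Ccl9 and Ccl6 stand at 2.42 and 3.03 between Ccl5 (-0.11) and Ccl3 (0.36).

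The 250 bases before the start of each ligand that rose are shown because the 3 genes moved in the same direction and their promoters can be compared letter by letter. The sequences are from RefSeq (GRCm38.p6), 5′ to 3′ on the gene's own minus strand, and capitals mark matches to the motifs named after them.
Ccl6, chr11:83593088-83593337: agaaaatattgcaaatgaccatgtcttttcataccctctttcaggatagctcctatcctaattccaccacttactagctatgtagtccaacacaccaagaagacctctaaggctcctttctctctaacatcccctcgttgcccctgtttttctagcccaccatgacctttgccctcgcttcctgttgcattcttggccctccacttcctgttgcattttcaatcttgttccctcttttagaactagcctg
Ccl9, chr11:83578637-83578886: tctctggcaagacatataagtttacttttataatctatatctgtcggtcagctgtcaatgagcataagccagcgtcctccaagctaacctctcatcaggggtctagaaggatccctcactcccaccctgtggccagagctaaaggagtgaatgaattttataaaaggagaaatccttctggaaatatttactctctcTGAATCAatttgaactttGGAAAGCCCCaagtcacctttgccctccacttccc
Cxcl10, chr5:92348890-92349139: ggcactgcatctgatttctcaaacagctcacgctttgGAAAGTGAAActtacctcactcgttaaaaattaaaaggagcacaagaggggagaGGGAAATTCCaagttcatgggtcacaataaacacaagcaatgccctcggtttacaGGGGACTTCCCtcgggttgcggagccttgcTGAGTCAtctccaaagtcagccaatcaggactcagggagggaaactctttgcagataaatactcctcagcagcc
The motifs were searched on either strand. They were the core of the interferon-stimulated response element (GAAA, any 2 bases, then GAAA), the gamma-activated site (TTCNNNGAA) and the AP-1 site (TGANTCA). The others were GAGGAA, a form of the ETS site bound by PU.1, and the kappaB site of NF-kB. The shorter ETS core GGAA was not searched. The Ccl6 window held none of the 5 as searched, which says nothing of shorter ETS sites. Ccl9 held an AP-1 match 53 to 47 bases before the start and a kappaB match 35 to 26 bases before it. Cxcl10 held the interferon response core 213 to 204 bases before the start, an AP-1 match at 74 to 68, and kappaB matches at 159 to 150 and at 104 to 94, the last made of 2 matches shifted by 1 base. Among all 32851 windows of that length, 2.98% held the interferon response core and 7.02% the gamma-activated site. AP-1 was in 6.75%, GAGGAA in 23.3% and a kappaB site in 7.25%. Promoter entries were matched for 7 of the 10 ligands, and the interferon response core was found in Cxcl10 alone among them. A kappaB match was found in 3 of the 7, Ccl9, Cxcl10 and also Ccl1, which was not called. A match describes letters and is not evidence of binding.

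Cxcl10 (chromosome 5, 92346638 to 92348889, minus strand), a ligand of CXCR3, rose in memory libraries and was of low abundance in each group. It had 1.42, 2.31 and 2.01 RPKM in memory libraries, against 0.57, 0.57 and 0.55 RPKM in naive libraries. The naive libraries were nearly equal at 24 to 26 reads, the memory libraries held 68 to 124, and the groups did not overlap. The ratio of means was 3.41 and the log2 change was 0.89 (SE 0.14, limma adjusted p = 0.018). The call was lost without memory replicate 2 or 3 or any naive library, with adjusted p between 0.0633 and 0.0807, and was kept without memory replicate 1 (0.0167). Per RPKM of Lyz2, Cxcl10 was at 0.00321, 0.00499 and 0.00461 in memory libraries, against 0.0156, 0.0167 and 0.0128 in naive libraries. Memory was lower on that scale because Lyz2 had the larger ratio of means (11.8). Other genes of its list, such as Clec4f (1.62), had a smaller ratio than Cxcl10. Lyz2 was chosen after the values were seen, so the direction of this ratio is no result about Cxcl10. The part of the myeloid genes, or of the hepatocyte genes given above, in the rise of Cxcl10 was not tested.

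Cxcl9, the other CXCR3 ligand measured, lies 18.6 kb from Cxcl10. It had 0.47, 0.89 and 0.90 RPKM in memory libraries, against 0.43, 0.18 and 0.25 RPKM in naive libraries. The groups stood apart by a small margin, since memory replicate 1 was close to naive replicate 1, and the values rest on 30 to 64 reads in memory libraries and 11 to 24 in naive libraries. The log2 change of 0.44 (SE 0.16, 95% interval 0.07 to 0.82) did not pass limma (adjusted p = 0.206), whereas limma's voom applied to recovered reads did (adjusted p = 0.0393). Cxcl11, the remaining ligand of CXCR3, was under 0.08 RPKM in every library and was not tested.

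The interferon-gamma arm that induces CXCR3 ligands was partly higher in memory libraries. Of 9 tested genes, 5 rose, none fell and 4 did not pass the test, where 3.20% of all tested genes were higher. Ifng itself, the cytokine of ILC1s, was at 22.6 ± 1.01 RPKM in memory and 19.4 ± 1.71 in naive libraries (SD, n = 3 each), without overlap but not past the threshold (limma adjusted p = 0.187). The kinase gene Jak2 was at 118 ± 3.18 RPKM in memory and 97.1 ± 1.81 in naive libraries (log2 change 0.28, SE 0.03, limma adjusted p = 0.00655). The receptor chain Ifngr2 was at 1.56 ± 0.19 RPKM in memory and 0.14 ± 0.04 in naive libraries (log2 change 1.16, limma adjusted p = 0.00252). Its values rest on 98 to 125 reads in memory libraries and only 6 to 12 in naive libraries. These 2 calls held without any 1 library, while that of Irf1 was lost without each of the 6 in turn (limma adjusted p up to 0.121) and that of Irf8 without each but memory replicate 3 (up to 0.126). The NF-kB arm, which acts on many chemokine genes, had 4 of 7 tested genes higher and none lower, beside the same 3.20%. Nfkbia, the inhibitor that NF-kB induces, was at 54.1 ± 3.9 RPKM in memory and 30.9 ± 0.59 in naive libraries, and Nfkb2 was at 31.9 ± 1.72 in memory and 19.3 ± 1.44 in naive libraries. Relb and Tnfaip3 also rose, with calls lost without memory replicate 2 (limma adjusted p up to 0.0671 for Relb and 0.0509 for Tnfaip3) and, for Relb, also without memory replicate 1, memory replicate 3 or naive replicate 3. Summed macrophage and monocyte RNA moved with these arms as given above, and its part in them was not tested.

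Cxcl16 (chromosome 11, 70453983 to 70459984, minus strand) was just outside the threshold. It had 1.75, 1.36 and 1.70 RPKM in memory libraries, against 0.89, 0.37 and 0.42 RPKM in naive libraries. The groups did not overlap, and naive replicate 1 was the highest of its group. The log2 change was 0.75 (SE 0.16, 95% interval 0.38 to 1.12, limma adjusted p = 0.0507), and the ratio of means was 2.86. Cxcl16 was called without naive replicate 1 (adjusted p = 0.0313) and by voom on the recovered reads (adjusted p = 0.00073). Of its 3021 exon bases, 552 overlap Zmynd15 on the opposite strand, which had 0.45, 0.31 and 0.47 RPKM in memory libraries, against 0.07, 0.09 and 0.10 RPKM in naive libraries. Zmynd15 was thus also higher in memory libraries without overlap, was too low to be tested, and its part in Cxcl16 was not tested. Per RPKM of Lyz2, Cxcl16 was at 0.00395, 0.00294 and 0.00389 in memory libraries, against 0.0243, 0.0110 and 0.00988 in naive libraries. This ratio too was lower in memory because Lyz2 had the larger ratio of means (11.8), and Lyz2 was chosen after the values were seen. Clec4f of the same list had a smaller one (1.62) than Cxcl16. The part of the myeloid or hepatocyte genes in the level of Cxcl16 was not tested. The genes of the proteases that release CXCL16 from the membrane, Adam10 and Adam17, were at 26.2 and 14.4 RPKM in memory and 28.2 and 13.1 in naive libraries, neither called.

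The ligands typical of ILC1s and natural killer cells did not pass the test. Xcl1 (chromosome 1, 164931644 to 164935527, minus strand) had 298, 360 and 331 RPKM in memory libraries, against 294, 288 and 241 RPKM in naive libraries. The groups stood apart by a narrow margin between memory replicate 1 and naive replicate 1. The log2 change of 0.27 (SE 0.10, 95% interval 0.04 to 0.50) did not pass limma (adjusted p = 0.216), whereas voom applied to recovered reads did (adjusted p = 0.0121). Of the 523 exon bases of Xcl1, 98 overlap Gm20743 on the opposite strand. Gm20743 was at 25.4 ± 1.69 RPKM in memory and 19.9 ± 1.14 in naive libraries (SD, n = 3 each, limma adjusted p = 0.0414), a call lost without any 1 library except memory replicate 1 (adjusted p up to 0.145). No source used here tells whether counting used strand, and the part of Gm20743 in Xcl1 was not tested.

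Ccl5 (chromosome 11, 83525778 to 83530518, minus strand), which attracts T cells and monocytes, had 127, 135 and 125 RPKM in memory libraries, against 157, 143 and 121 RPKM in naive libraries. The memory libraries lay close together within the wider naive range. The log2 change was -0.11 (SE 0.09, 95% interval -0.33 to 0.11, limma adjusted p = 0.608). The ratio of Xcl1 to Ccl5 in a library was 2.36, 2.66 and 2.64 in memory, against 1.87, 2.02 and 2.00 in naive, with no overlap, a ratio chosen after the values were seen and not tested.

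Ccl3 (chromosome 11, 83647844 to 83649355, minus strand), which attracts monocytes, had 27.9, 22.8 and 27.0 RPKM in memory libraries, against 20.7, 20.7 and 18.2 RPKM in naive libraries. Ccl4 (chromosome 11, 83662584 to 83664683, plus strand), which attracts monocytes and lymphocytes, had 24.9, 20.4 and 24.2 RPKM in memory libraries, against 18.4, 18.2 and 19.9 RPKM in naive libraries. For each gene the groups did not overlap, and memory replicate 2 was the lowest of its group. Log2 changes were 0.36 for Ccl3 (SE 0.09, 95% interval 0.15 to 0.58, limma adjusted p = 0.0833) and 0.28 for Ccl4 (SE 0.08, 95% interval 0.09 to 0.47, limma adjusted p = 0.134). Without memory replicate 2, each was called (adjusted p = 0.0497 for each). The ratio of Ccl3 to Ccl4 was 1.12 in each memory library, against 1.13, 1.13 and 0.914 in naive replicates 1 to 3.

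Ccl1, the ligand of CCR8, had 0.60, 1.06 and 0.55 RPKM in memory libraries, against 0.77, 0.95 and 0.56 RPKM in naive libraries. The groups overlapped, with a log2 change of -0.02 (SE 0.16, 95% interval -0.41 to 0.36, limma adjusted p = 0.96). The gene as counted spans chromosome 11, 82176657 to 82305690, and 1756 of its 2369 exon bases lie outside its protein-coding transcripts in GENCODE M21. Its value therefore cannot be read as the level of the ligand's own messenger RNA.

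Receptors for these ligands were in part present in the same libraries. Of 7 receptor genes, Cxcr3 and Cxcr6, the receptors of CXCL9, CXCL10 and CXCL16, fell in memory libraries, and 5 were not called or not tested. Cxcr3 was at 50.3 ± 0.79 RPKM in memory and 60.4 ± 1.81 in naive libraries (log2 change -0.26), and Cxcr6 at 48.0 ± 1.3 in memory and 58.8 ± 2.22 in naive libraries (log2 change -0.29; SD, n = 3 each). Each call was lost without 4 of the 6 libraries in turn (limma adjusted p up to 0.0661 and 0.0657), which were memory replicate 3 and naive replicates 1 and 2 for each gene, memory replicate 2 for Cxcr3 and memory replicate 1 for Cxcr6. Ccr1, the receptor of CCL6 and CCL9, was at no more than 0.18 RPKM in any library. Ccr8 was between 0.27 and 0.76 RPKM over all libraries, and Ccr3 at no more than 0.03. Xcr1 was at 1.42 ± 0.38 RPKM in memory and 1.42 ± 0.22 in naive libraries.

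Of 31 further chemokine ligand genes listed, 15 were in the table, 1 was tested and the other 16 were not analysed here. The tested one, Ccl25, held 57 to 103 reads in every library and was at 0.61 ± 0.02 RPKM in memory and 0.46 ± 0.07 in naive libraries (SD, n = 3 each) and was not called. Of the 15 in the table, all but Cxcl13 stayed under 1 RPKM in every library. Cxcl13, which attracts B cells, had 10, 20 and 23 reads in memory libraries, against 0, 4 and 0 reads in naive libraries, and averaged too little to be tested. The neutrophil chemoattractant Cxcl2 had 10, 14 and 4 reads in memory libraries and was listed at 0 in all naive libraries.

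The genes most like each ligand were sought among 12226 genes of at least 1 RPKM, by Pearson's r of log2(RPKM + 1) over the 6 libraries. For Ccl6 they were Cd300a, Zeb2 and Tgfbi, with r of 0.999 each, and all 3 rose in memory libraries. For Ccl9 they were Klf3, H2-Aa and Tubb6 (r of 0.999, 0.999 and 0.997), and for Cxcl10 Ikbke, Mid1ip1 and Mir1970 (r of 0.995, 0.995 and 0.994). Many genes came close to these values, 327 with an r over 0.95 with Ccl6 and 323 with Ccl9, and a gene that differs strongly between the groups has a high r with any other such gene. For Ccl3 they were Zfp36, Atf7 and Actr8 (r of 0.994 to 0.997), with 57 genes over 0.95, and for Xcl1 Nedd4l, Gm15583 and Mtmr6 (r of 0.984 to 0.986), with 40. None of these 6 passed the test between the groups. The libraries share their scaling to a common total, and with 6 points such values are a description only.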

How the data were processed

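The authors deposited 1 table of RPKM values with the position, strand and exon length of 23942 genes, per the file headers. Tools listed, without roles, in the submitters' processing notes are edgeR 3.12.1, Subread 1.5.1, featureCounts and STAR 2.5.3a, and the build is mm10. The labels' protocols give TRIzol extraction and a stranded mRNA library kit. No source used here gives the annotation release, the use of strand in counting or any molecular identifiers. All 10 member positions equal those of GENCODE M21. Values times length summed to 1000000 in each library, and reads recovered from the steps were whole, to within 0.001 read, for 100% of values. Of counts of 1 to 10 reads, 69.8% to 72.3% were even, as when both mates are counted, so floors of 3 reads cover counting error only and independent molecules are fewer.

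The test was limma-trend (limma 3.58.1, R 4.3.3) on log2(RPKM + 1), restricted to genes averaging 0.5 RPKM or more, with Benjamini-Hochberg adjustment over 13793 genes, no block and a threshold of 0.05. It was also run on simulated counts with a set spread between replicates, which cannot show its error rate in these data. Fold changes on this scale understate low genes. The members, lists and tests were chosen with earlier results of these data known. All members are named. The rule named all receptors and, of other lists, up to 4 genes by adjusted p (some are not reported here), besides Ifng, Irf8, the macrophage genes plotted, Csf3r, Ccl25, Adam10, Adam17, Gm20743, Zmynd15, Heatr9, Wfdc17, Cxcl2, Cxcl11, Cxcl13, Flt3, Clec9a, S100a8, Ccr2 and Ncr1, chosen after their values were seen. Zbtb46 and Siglech were also named after their values were seen. Genes like each member were the top 3 by r. Alternatives were quantile and median ratio scaling, pseudocounts of 0.1 and 0.5, a 2 RPKM filter or none, the replicate block, limma's voom on recovered reads and each library left out. Replicates of a group differed beyond counting noise (chi-square per gene at least 2.47 with reads halved) and all 6 libraries were kept.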

Additional observations from a re-analysis of the deposited data

How the results depend on the processing

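Ccl6 and Ccl9 kept their direction and their call under all 14 alternatives run, with log2 changes of 2.97 to 3.55 and 2.31 to 3.97. Cxcl10 kept its direction in all 13 alternatives that tested it and its call in 7 (limma adjusted p 0.000585 to 0.0807); with the replicate number as a block its adjusted p was 0.0715, and a filter of 2 RPKM removed it. By voom on the recovered reads 1179 genes were called, against 575, and 6 ligands, against 3, with Cxcl16, Xcl1 and Cxcl9 added. With the replicate number as a block, 271 genes and 2 ligands were called. Deviations of same-numbered libraries from their group means had r of -0.084, -0.0395 and -0.00297 over 13793 genes. Differently numbered pairs had r of -0.0784 to 0.109. With 3 libraries in a group, these values cannot tell whether same-numbered libraries were paired. Leaving out 1 library gave 270 to 388 genes and 2 to 4 ligands, from fewer samples. Ccl1 turned positive without memory replicate 1 or 3 or naive replicate 2 (log2 changes of -0.155 to 0.0537 over the fits that leave out 1 library) and was never called. The causes were not tested. A quasi-likelihood count test on the recovered reads was planned and not run, as the deposited values are RPKM. Depth limits Cxcl9, Cxcl10, Cxcl16, Ccl1 and the naive level of Ccl9, which rest on 11 to 124 reads a library.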
